A study of Anolis carolinensis with 15 samples.

Results

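The transition from the wound to the blastema was described by setting D14 libraries of sorted *col3a1*+ cells from regenerating tails of the green anole, *Anolis carolinensis*, directly against D7 libraries. The comparison used 6 of the 15 libraries of the series, 3 at D14 and 3 at D7, called A, B and C by their labels. All 6 came from untreated lizards of both sexes, up to about a year old, whose original tails had been cut 14 or 7 days before collection. Tail tissue, labelled as whole tail and collected by a second cut near the first, was dissociated, the cells were fixed and hybridized with fluorescent probes to *col3a1* RNA, and labelled cells were sorted by flow cytometry before total RNA was sequenced. The sort is given in the study's text at one place as excluding cells with *krt5* and at another as including them, and the labels name the cell type only as fibroblast. The study's text gives 3 repeats of the experiment per timepoint. How many tails entered a library is not given in the sources used here. The p-values therefore measure the spread between these libraries, which may be partly technical. The question asked was which genes separate the blastema from the wound phase before it. Of 26523 genes listed, 20588 entered the test because 3 or more of the 6 libraries had 10 or more counts, and both directions are reported. *col3a1* did not pass with all 9 time course libraries fitted together (adjusted p = 0.0881).

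A lizard tail passes through an inflammation phase after amputation, in which damaged tissue is broken down and a wound epidermis closes the stump, and then through a blastema phase, in which mesenchymal cells gather beneath that epidermis. Fibroblasts of a wound make and crosslink collagen, secrete the proteases that remodel it, and carry receptors for growth factors of the TGF-beta, PDGF, FGF and Wnt families. The epidermis over a blastema is stratified, holds its cells together with desmosomes and is a source of growth factor ligands for the cells below.

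At D14, 18 of 24 collagens were lower than at D7. So were 14 of 29 enzymes and chaperones that make or crosslink collagen, 14 of 35 matrix proteases and inhibitors, 10 of 27 inflammatory signals and 21 of 43 transcription factors of the mesenchyme, and most of the others in each of these 4 lists did not pass the test. Of 41 epidermal genes 37 were higher. Of the genes tested, 2048 rose at D14 (9.95%) and 2091 fell (10.2%) at an adjusted p under 0.05 from edgeR's quasi-likelihood test, together 20.1%. With an absolute log2 fold change over 2 required as well, 1159 rose (5.63%) and 285 fell (1.38%). The median log2 fold change, D14 minus D7, was 0.04 over all genes tested. D14 libraries held 11043456 to 12699682 counts and D7 libraries 8166652 to 8859393, and 24881 to 24900 genes had a count at D14, against 20250 to 22100 at D7. After every library had been thinned to 8166652 counts, 24155 to 24273 genes had a count at D14, against 19865 to 21716 at D7. Fewer genes were thus detected at D7 at an equal total count, and the part of this in the rises of low genes was not tested. Within D14 the lowest Spearman correlation between libraries, taken across genes, which are not replicates, was 0.972, and within D7 it was 0.922. D7 A was the nearest to D14, with a correlation of up to 0.938. The counts of calls were lower without any 1 D14 library, at 882, 911 and 1014 genes higher and 1067, 914 and 1208 lower without D14 A, B and C. Without D7 A, 1888 genes rose past the fold as well. With the D28 libraries in the fit, so that all 9 time course libraries shared one estimate of the spread, 500 genes rose and 536 fell. One D14 library was sequenced before the rest of the time course according to the study's text, which does not say which, so the fit holds no term for it and its part was not tested.

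**Figure D1:**
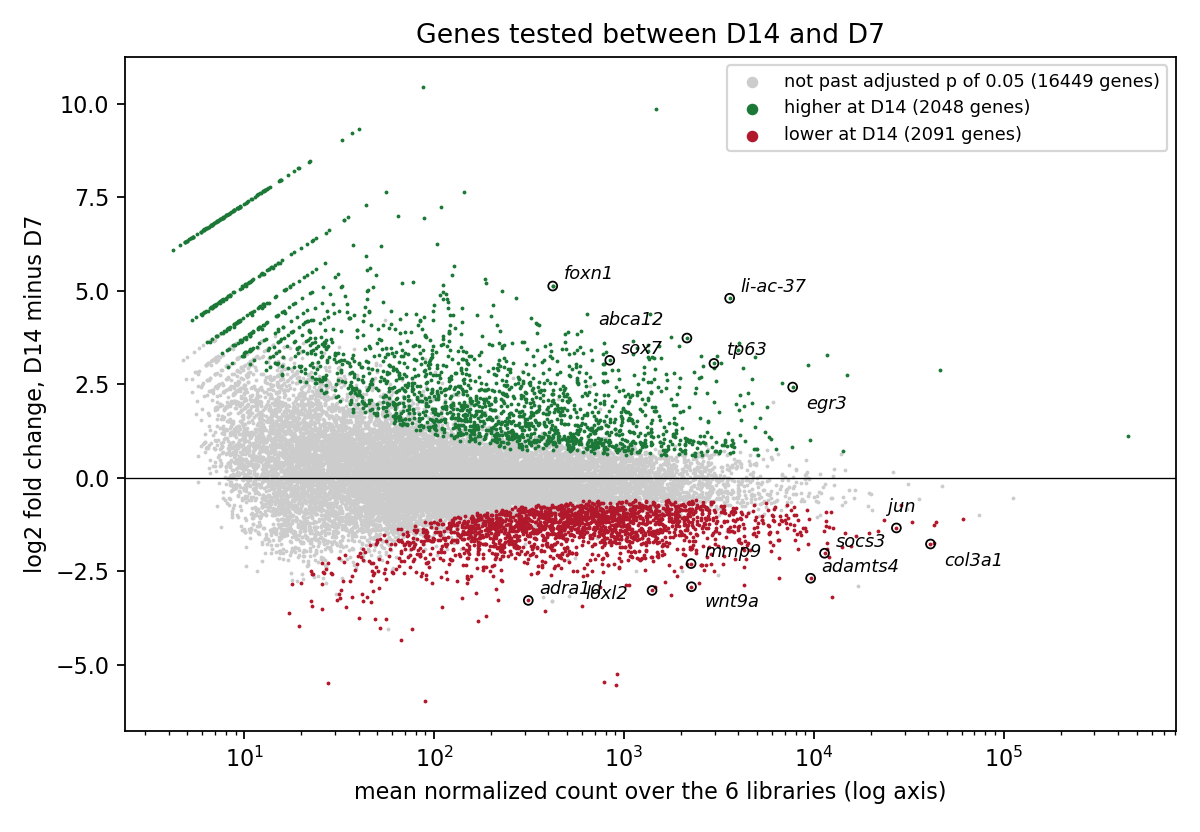
Log2 fold change, D14 minus D7, of the 20588 genes tested against the mean normalized count of the 6 libraries (log axis), with one dot per gene. Genes past an adjusted p of 0.05 are green where higher at D14 (2048) and red where lower (2091).

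The sorted gene and the marker lists were read first, as a check on the cells. *col3a1* (chromosome 1, 198310883 to 198409656 in rAnoCar3.1.pri), the fibrillar collagen by which cells were labelled, had 18610.0, 18452 and 18894 normalized counts in D14 A, B and C, against 54077, 55509 and 80979 in D7 A, B and C. It was abundant in every library and the groups did not overlap, as was so with D14 below for 19.4% of all genes tested and with D14 above for 23.6%. It was lower at D14 (log2 fold change -1.77, standard error 0.24, adjusted p = 0.00136 in edgeR). Over all 22 fibroblast markers tested, the summed share of counts was 1.16%, 1.39% and 1.49% in D14 A, B and C, against 3.09%, 3.13% and 2.97% in D7 A, B and C. The 41 epidermal markers tested made up 1.31%, 1.36% and 0.994% of counts at D14, against 0.353%, 0.232% and 0.258% at D7. Both sums separated the groups. In D14 A the epidermal markers summed to more than the fibroblast markers, and in D14 B to about as much. The lists differ in length (41 and 22 genes), so these sums do not rank the cell types. *krt5* is not among the gene symbols. In sorted bulk cells, fewer cells of a type and less RNA per cell cannot be told apart. Every fall of a fibroblast gene below goes with both sums, and their part in the results was not tested.

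Collagens fell as a group. Of 24 fibrillar and associated collagen genes tested, 18 fell (75%, against 10.2% of all genes), 2 rose (8.33%, against 9.95%) and 4 did not pass. The median log2 fold change was -1.16. With each library left out in turn, 15 to 19 fell. *col5a3*, a chain of the type V collagen that sets fibril diameter, had 1194, 1035 and 1152 normalized counts in D14 A, B and C, against 4559, 5580.2 and 6382 in D7 A, B and C. *col4a1*, a chain of the basement membrane collagen, had 1432, 1047 and 1707 in the D14 libraries, against 5432, 6964 and 6348 in the D7 libraries. In each case the highest D14 library lay far below the lowest D7 library. D14 lay below D7 in every library for 19.4% of all genes tested. The log2 fold changes were -2.29 for *col5a3* and -2.16 for *col4a1* (adjusted p = 0.000313 and 0.000492 in edgeR, with standard errors of 0.21 and 0.24). *col8a1*, a short-chain collagen of vessels and wounds, fell further from a lower level, with 39.8, 21.1 and 64.6 in the D14 libraries, against 132, 310.4 and 328 in the D7 libraries (log2 fold change -2.62, standard error 0.50, adjusted p = 0.0061). The 2 main chains of type I collagen, chosen after their values were seen, fell less. *col1a1* had 34932, 39347 and 43132 in the D14 libraries, against 81332, 91904 and 76904 in the D7 libraries (log2 fold change -1.09, standard error 0.23, adjusted p = 0.00935), though the call was lost without D7 B (adjusted p = 0.0587). *col1a2* had 23775, 23578 and 28284 in the D14 libraries, against 53232, 64817 and 63979 in the D7 libraries (log2 fold change -1.27, standard error 0.22, adjusted p = 0.00441). The 2 collagens that rose were a transmembrane and a fibril-associated one. *col17a1*, a transmembrane collagen of the hemidesmosomes that fix basal epidermal cells to their membrane, had 6128 ± 811 normalized counts at D14 and 2116 ± 809 at D7 (SD, n = 3 each). *col14a1*, a collagen that binds the surface of fibrils, had 461 ± 31.0 normalized counts at D14 and 156 ± 56.2 at D7 (SD, n = 3 each). Their log2 fold changes were 1.53 and 1.56 (adjusted p = 0.00492 and 0.00693 from edgeR). No D7 library reached a D14 library for either gene, as for 23.6% of all genes tested. *col1a1*, *col1a2* and *col14a1* did not pass with all 9 time course libraries fitted together (adjusted p = 0.109 to 0.279).

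Enzymes that process collagen fell with it. Of 29 collagen-making enzymes and chaperones tested, 14 fell (48.3%, against 10.2% of all genes) and 15 did not pass. The median log2 fold change was -0.94, and 12 to 16 fell with each library left out. *loxl2*, a lysyl oxidase-like enzyme that crosslinks collagen, had 252, 289 and 390.4 normalized counts in D14 A, B and C, against 1949, 2683 and 2861 in D7 A, B and C. All D14 libraries lay below the lowest D7 library by several fold. D14 lay below D7 in every library for 19.4% of all genes tested, and a rule for naming *loxl2* required it. The fall of *loxl2* (log2 fold change -3.01, standard error 0.25, adjusted p = 0.000282 in edgeR) was one of the 12 largest falls of any gene considered for naming. *loxl1*, of the same family, had 593, 469 and 747 in the D14 libraries, against 1683, 2562 and 2868 in the D7 libraries (log2 fold change -1.98, standard error 0.26, adjusted p = 0.00115). *p3h4*, part of the complex that modifies lysines of collagen in the endoplasmic reticulum, had 403, 473 and 454 in the D14 libraries, against 1521, 2049 and 1645 in the D7 libraries (log2 fold change -1.97, standard error 0.21, adjusted p = 0.000433). Of the members outside the rule for naming, chosen after their values were seen, *loxl3* (-1.88) and *lox* (-1.70), both crosslinking enzymes, and *serpinh1* (-1.57), the collagen chaperone, fell on the log2 scale by the amounts in brackets.

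Of 42 proteoglycan and matricellular genes tested, 21 fell (50%, against 10.2% of all genes), 1 rose (2.38%, against 9.95%) and 20 did not pass. The median log2 fold change was -0.88, and 18 to 21 fell with each library left out. *emilin1*, an elastic fibre glycoprotein, had 1982, 1064 and 2249.5 normalized counts in D14 A, B and C, against 7909.6, 10076 and 16092 in D7 A, B and C. *emilin2*, its relative, had 186, 165 and 178 in the D14 libraries, against 614, 854 and 437 in the D7 libraries. *ccn2*, a matricellular protein induced by TGF-beta and by stretch, had 982, 1298 and 1538 in the D14 libraries, against 4679, 5704 and 5911 in the D7 libraries. For each gene every D14 library was below every D7 library, as for 19.4% of all genes tested. Log2 fold changes were -2.69 for *emilin1*, -1.85 for *emilin2* and -2.09 for *ccn2* (adjusted p = 0.00103, 0.00208 and 0.000492 from edgeR). *fn1*, fibronectin, was chosen after its values were seen and fell by 1.43 on the log2 scale, with 6140.5 ± 1062 normalized counts at D14 and 16554 ± 1266 at D7 (SD, n = 3 each). Against the group, *cd44*, the hyaluronan receptor, had 1625 ± 489 normalized counts at D14 and 547 ± 151 at D7 (SD, n = 3 each) and rose by 1.57 (adjusted p = 0.00498 from edgeR). The number of genes of this list that rose was 2 without D7 A, without D7 B or without D7 C.

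Fewer members passed among the matrix proteases. Of 35 proteases and inhibitors tested, 14 fell (40%, against 10.2% of all genes), 1 rose (2.86%, against 9.95%) and 20 did not pass. The median was -0.56, and 10 to 14 fell with each library left out. *adamts4*, a protease that cleaves proteoglycans, had 2512, 1862 and 3391 normalized counts in D14 A, B and C, against 11418, 15646 and 22790.0 in D7 A, B and C. *mmp9*, a gelatinase of wounds, leukocytes and osteoclasts (chromosome 4), had 608, 830.4 and 856 in the D14 libraries, against 4069, 3618 and 3541 in the D7 libraries. *adamts2*, which trims the ends of new procollagen, had 285, 300.2 and 319 in the D14 libraries, against 1404, 1675 and 1347 in the D7 libraries. D14 lay below D7 in every library, as for 19.4% of all genes tested. The D7 libraries of *mmp9* and *adamts2* lay close together and several fold above all D14 libraries, whereas those of *adamts4* were spread. Their log2 fold changes were -2.68, -2.29 and -2.29 for *adamts4*, *mmp9* and *adamts2* (adjusted p = 0.00072, 0.000313 and 0.000282 in edgeR, standard errors 0.32, 0.21 and 0.20). *sulf1*, an extracellular sulfatase that the study names for its time course, had 2349.9, 3397 and 2190.1 in the D14 libraries, against 4388, 2773 and 2645 in the D7 libraries. Its groups overlapped and the change of -0.31 did not pass (adjusted p = 0.444 from edgeR). *plau*, the urokinase plasminogen activator, was the gene that rose, by 1.06 (adjusted p = 0.0353), and did not pass without D14 B, D14 C, D7 A, D7 B or D7 C (adjusted p = 0.054 to 0.156). In this list 0 genes rose without D14 B and 3 without D7 A. *plau* did not pass with all 9 time course libraries fitted together (adjusted p = 0.113).

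**Figure D2:**
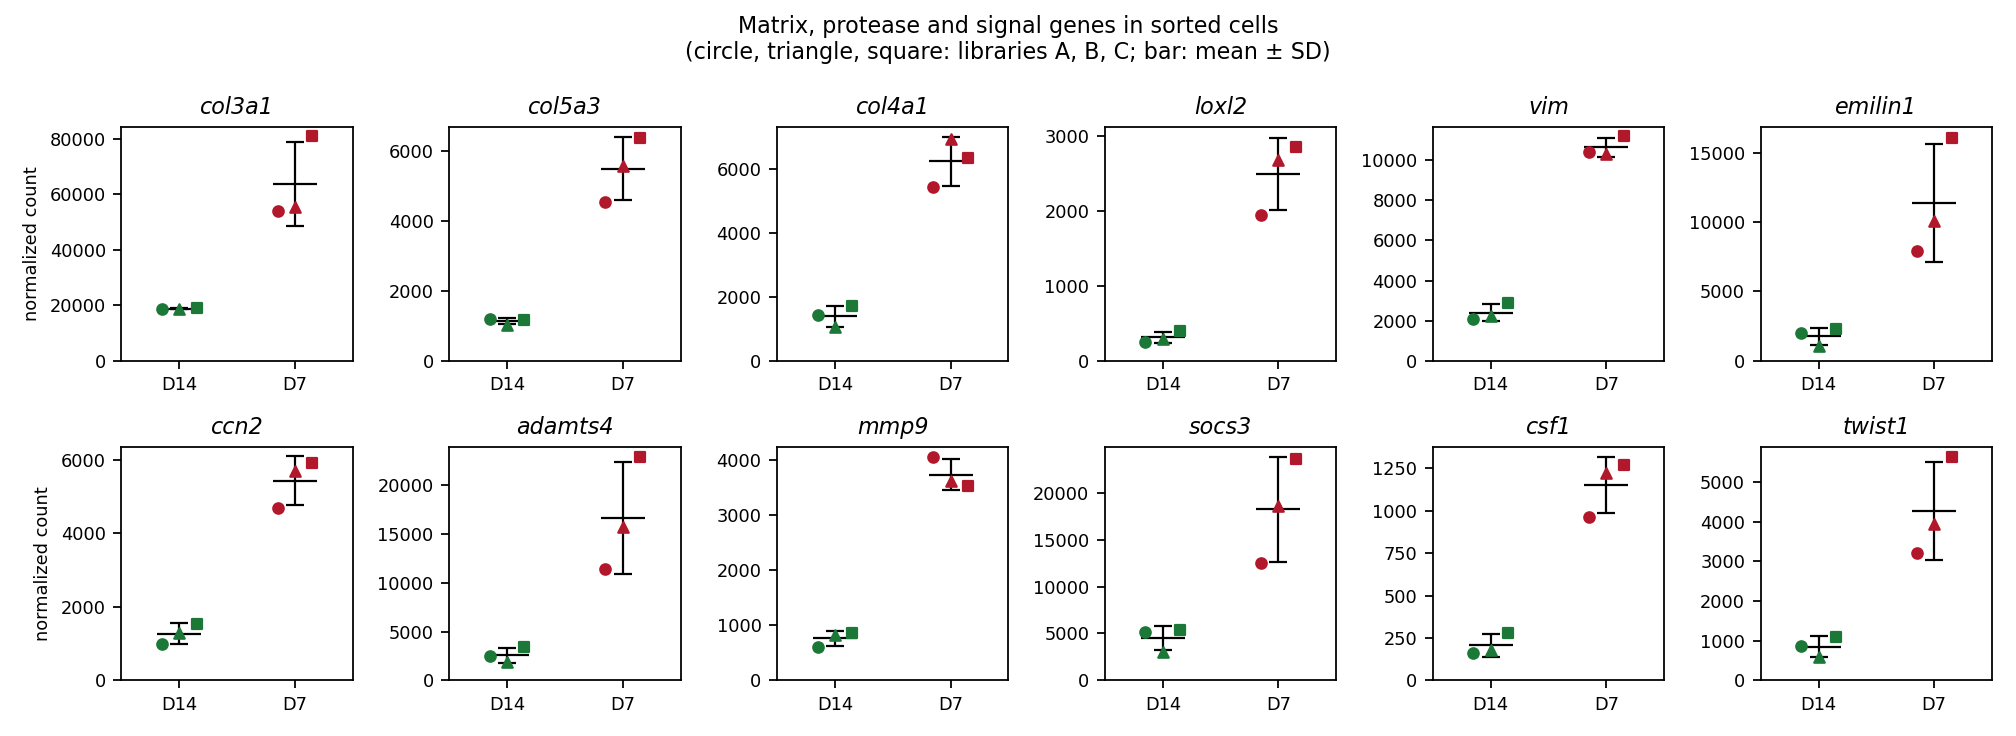
Normalized counts (linear axes from 0) of 12 genes of the matrix, its breakdown, inflammation and the mesenchyme in D14 libraries, left and green, and D7 libraries, right and red, with bars for the mean ± SD of 3 libraries. For each of the 12 genes, chosen from those that fell, every D14 library lies below every D7 library. This was so for 19.4% of all genes tested.

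Inflammatory signals were lower at D14 in 10 of 27 genes tested (37%, against 10.2% of all genes). Of the others 1 was higher (3.7%, against 9.95%) and 16 did not pass, and the median log2 fold change was -0.67. Falls in the list numbered 5 without D14 B and 6 without D14 C. *socs3* (chromosome 2), which dampens cytokine receptor signalling and is induced by it, had 5208, 2986 and 5339 normalized counts in D14 A, B and C, against 12461, 18612 and 23602 in D7 A, B and C. *csf1*, the growth factor of macrophages and osteoclast precursors, had 159, 177 and 282 in the D14 libraries, against 965, 1225 and 1268 in the D7 libraries. *il11*, a cytokine of the IL-6 family, had 97.9, 83.4 and 79.3 in the D14 libraries, against 306, 268 and 342 in the D7 libraries. D14 lay below D7 in every library for all of them, as for 19.4% of all genes tested. Log2 fold changes were -2.01, -2.48 and -1.81 for *socs3*, *csf1* and *il11* (adjusted p = 0.00217, 0.000492 and 0.00212 from edgeR). *nfkb1*, which encodes a subunit of the NF-kappaB transcription factor, rose, with 1340.5, 1529 and 1460.0 in the D14 libraries, against 581, 553 and 415 in the D7 libraries (log2 fold change 1.48, standard error 0.21, adjusted p = 0.00145). *il6* had 6, 14 and 3 counts in D14 A, B and C, against 5, 0 and 0 in D7 A, B and C. It did not reach the count filter and was not tested, so no difference is read from these counts. The study's text names *il6* among inflammatory genes increased at D7, which these counts do not show. *il11* did not pass with all 9 time course libraries fitted together (adjusted p = 0.089).

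Of 21 macrophage and leukocyte markers tested, 2 rose and 2 fell (9.52% each, near the 9.95% and 10.2% of all genes), with a median of -0.19. They made up 0.0394% to 0.0505% of counts at D14, against 0.0715% to 0.0901% at D7, and *runx1*, a transcription factor of blood cells and of other tissues, carried this difference. Without *runx1* the sums were 0.0128% to 0.0156% at D14 and 0.0131% to 0.0159% at D7, and they overlapped. *csf1r*, the receptor of the *csf1* product, had 120.2, 134 and 141 in the D14 libraries, against 726, 512 and 361 in the D7 libraries, and fell (log2 fold change -2.01, standard error 0.30, adjusted p = 0.00177). *ifi30*, a lysosomal thiol reductase that the study used as an immune marker, rose by 1.50 (adjusted p = 0.0272 from edgeR) with 626, 240.2 and 253 in the D14 libraries, against 165, 131 and 101 in the D7 libraries, and D14 A was far above the other D14 libraries. It did not pass without D14 A, D7 B or D7 C (adjusted p = 0.0685 to 0.139). *hck*, a myeloid kinase chosen for its floor, had a summed count of 87 at D14 and 0 at D7, at least 18.0-fold higher at D14 against a floor of 3 counts over the group. It entered the test only through its D14 libraries, so that its direction was largely fixed by the filter. *runx1* fell as well (-1.30), and the count of rises in the list was 0 without D14 A, 1 without D14 B, 1 without D14 C and 1 without D7 B. The common leukocyte antigen *ptprc*, chosen after its values were seen, had 18.3, 18.7 and 25.0 in the D14 libraries, against 8.68, 17.3 and 2.91 in the D7 libraries (adjusted p = 0.395), a low level in both groups. Of 12 osteoclast markers tested, 3 fell (25%, against 10.2% of all genes) and 9 did not pass, with a median of -0.83. These were *mmp9*, given above, *itgb3*, the integrin by which osteoclasts attach, at 327, 534 and 469.7 in the D14 libraries, against 2124, 1804 and 2077 in the D7 libraries (log2 fold change -2.17, standard error 0.23, adjusted p = 0.000456), and *tcirg1*, a proton pump subunit (-0.79, adjusted p = 0.0438), which did not pass without D14 A, D14 B, D14 C, D7 B or D7 C (adjusted p = 0.0541 to 0.196). *ctsk* is not among the gene symbols. *ifi30*, *hck* and *tcirg1* did not pass with all 9 time course libraries fitted together (adjusted p = 0.0706 to 0.163).

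Immediate early factors, which cells induce within minutes of stimulation or dissociation, did not all move one way. Of 30 tested, 8 fell (26.7%, against 10.2% of all genes), 3 rose (10%, against 9.95%) and 19 did not pass. The median was -0.52. The number of genes that fell was 4 without D14 A, 4 without D14 B, 4 without D14 C, 14 without D7 A, 4 without D7 B and 5 without D7 C. *egr3*, a zinc finger factor of growth factor responses, had 14981, 13280.0 and 10823 normalized counts in D14 A, B and C, against 2356, 2425 and 2488 in D7 A, B and C. Its D7 libraries lay close together and far below those of D14 (log2 fold change 2.43, standard error 0.21, adjusted p = 0.000282). D14 lay above D7 in every library for 23.6% of all genes tested. *fosl1*, an AP-1 subunit, rose as well, with 6414, 5284 and 5501 in the D14 libraries, against 3199, 3081 and 2457 in the D7 libraries (log2 fold change 0.98, standard error 0.20, adjusted p = 0.00868). *jun*, another AP-1 subunit, had 17686, 9600.0 and 18915 in the D14 libraries, against 28295, 36205 and 52326 in the D7 libraries and fell by 1.34 on the log2 scale (adjusted p = 0.017 from edgeR), though not without D7 B (adjusted p = 0.0523). *ier5* fell most among the named members, with 375, 154 and 357 in the D14 libraries, against 1438, 1434 and 1874 in the D7 libraries (log2 fold change -2.42, standard error 0.33, adjusted p = 0.00122). *jund* (-1.28, adjusted p = 0.0331) did not pass without D14 B, D14 C, D7 B or D7 C (adjusted p = 0.073 to 0.0997), and *maff* (0.62, adjusted p = 0.0498) did not pass without D14 A, D14 B, D14 C, D7 A, D7 B or D7 C (adjusted p = 0.0501 to 0.161). The subunits of AP-1 therefore did not share a direction, with *fosl1* higher and *jun* lower. *fosl1*, *jun*, *jund* and *maff* did not pass with all 9 time course libraries fitted together (adjusted p = 0.0952 to 0.189).

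Among transcription factors of the mesenchyme, more genes fell than rose. Of 43 tested, 21 fell (48.8%, against 10.2% of all genes), 7 rose (16.3%, against 9.95%) and 15 did not pass. The median was -1.03, and 12 fell without D14 A. *twist1*, which keeps cells mesenchymal, had 873, 585 and 1104 normalized counts in D14 A, B and C, against 3215, 3939 and 5623 in D7 A, B and C (log2 fold change -2.32, standard error 0.29, adjusted p = 0.000953). *osr1*, a factor of early connective tissue, had 15.9, 27.3 and 31.9 in the D14 libraries, against 164, 153 and 125 in the D7 libraries (log2 fold change -2.55, standard error 0.43, adjusted p = 0.00349). *meox2*, a homeobox factor of somite derivatives, had 115, 77.2 and 168 in the D14 libraries, against 453, 753 and 657 in the D7 libraries (log2 fold change -2.37, standard error 0.34, adjusted p = 0.00147). D14 lay below D7 in every library of these genes, as for 19.4% of all genes tested. *tbx15*, a T-box factor of skeleton and dermis, fell by 2.55 (adjusted p = 0.0129), though not without D14 A or D14 B (adjusted p = 0.0511 to 0.0653). The factors that rose include *tfap2a*, AP-2 alpha, known from skin and neural crest, which had 4420.4, 2898 and 2970.1 in the D14 libraries, against 519, 528 and 558 in the D7 libraries (log2 fold change 2.68, standard error 0.23, adjusted p = 0.000282). *lmx1b*, known from dorsal limb mesenchyme, had 2362, 1198 and 1325 in the D14 libraries, against 397, 176 and 204 in the D7 libraries (log2 fold change 2.65, standard error 0.37, adjusted p = 0.00144). *six2*, known from nephron progenitors and facial mesenchyme, had 94.7, 103 and 123 in the D14 libraries, against 28.5, 7.42 and 7.29 in the D7 libraries (log2 fold change 2.87, standard error 0.62, adjusted p = 0.0106). Every D14 library of *tfap2a*, *lmx1b* and *six2* was above every D7 library, as for 23.6% of all genes tested. *six2* had 10 or more counts in only 1 D7 library, so the filter partly fixed its direction. *tbx15* did not pass with all 9 time course libraries fitted together (adjusted p = 0.0774).

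Among the fibroblast markers themselves, 13 of 22 fell (59.1%, against 10.2% of all genes), 1 rose (4.55%, against 9.95%) and 8 did not pass. The median was -1.02, with 11 to 12 falls with each library left out. *vim*, vimentin, the intermediate filament of mesenchymal cells, had 2094, 2219.9 and 2881 normalized counts in D14 A, B and C, against 10396, 10341 and 11193 in D7 A, B and C. *pdgfrb*, the PDGF receptor of pericytes and fibroblasts, had 732, 1258 and 1137 in the D14 libraries, against 4482, 3676 and 2631 in the D7 libraries. Both were lower in every D14 library, as for 19.4% of all genes tested. The log2 fold changes were -2.15 for *vim* and -1.79 for *pdgfrb* (adjusted p = 0.000399 and 0.0021 in edgeR, with standard errors of 0.21 and 0.27). *spp1*, osteopontin, rose by 0.97 with 2762, 4105 and 3465 in the D14 libraries, against 1902, 1339 and 2045 in the D7 libraries (adjusted p = 0.0175), but did not pass without D14 B or D7 B (adjusted p = 0.0585 to 0.0685). Rises in the list numbered 0 without D14 B, 2 without D7 A and 0 without D7 B. Of 23 contractile genes of myofibroblasts, 6 fell (26.1%) and 17 did not pass, with a median of -0.44. *tagln*, transgelin, had 448, 338 and 503 in the D14 libraries, against 949, 1397 and 1743 in the D7 libraries (log2 fold change -1.67, standard error 0.27, adjusted p = 0.00275), and *tgfb1i1* (-1.56) and *cnn2* (-1.23), which bind focal adhesions and actin, fell too. Smooth muscle actin, *acta2*, chosen after its values were seen, was low, with 21.5, 37.4 and 36.2 in the D14 libraries, against 76.9, 65.5 and 61.2 in the D7 libraries (-1.10, adjusted p = 0.144). *spp1* and *tgfb1i1* did not pass with all 9 time course libraries fitted together (adjusted p = 0.056 to 0.234).

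Hox genes, which record position along the body, were lower in 14 of 37 tested (37.8%, against 10.2% of all genes). They were higher in 2 (5.41%, below the 9.95% of all genes), and 21 did not pass, with a median of -0.42. Leaving libraries out, the falls came to 6 without D14 A, 6 without D14 B and 7 without D14 C. *hoxb9* had 149, 122 and 185 normalized counts in D14 A, B and C, against 539.6, 558 and 651 in D7 A, B and C (log2 fold change -1.94, standard error 0.25, adjusted p = 0.00103). *hoxb7* (-1.67, adjusted p = 0.0403) and *hoxb5* (-1.48, adjusted p = 0.0145) fell too, though not without D14 A, D14 B or D7 B (adjusted p = 0.0916 to 0.168) for *hoxb7* and not without D14 A or D14 B (adjusted p = 0.0639 to 0.0801) for *hoxb5*. Both genes that rose are of paralogue group 10. *hoxd10* had 258, 254 and 303 in the D14 libraries, against 105, 110.0 and 121 in the D7 libraries, and *hoxc10* had 669, 607 and 688 in the D14 libraries, against 362, 414 and 175 in the D7 libraries. Their log2 fold changes were 1.28 and 1.04 (adjusted p = 0.00984 and 0.0375 from edgeR). D14 lay above D7 in every library, as for 23.6% of all genes tested. The call was lost without D14 C (adjusted p = 0.0514) for *hoxd10* and without D14 A, D14 B or D14 C (adjusted p = 0.0781 to 0.0995) for *hoxc10*. Without D14 A or D14 B 1 gene rose, and the count was 0 without D14 C. *hoxb7*, *hoxb5*, *hoxd10* and *hoxc10* did not pass with all 9 time course libraries fitted together (adjusted p = 0.108 to 0.327).

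Wnt genes moved in both directions. Of 57 tested, 12 fell (21.1%), 8 rose (14%) and 37 did not pass, with a median of -0.43. Of all genes tested, 10.2% fell and 9.95% rose. The number of genes that rose was 3 without D14 A, 4 without D14 B and 4 without D14 C. Among the ligands, *wnt9a* (chromosome 6, 115499510 to 115551006), known from joints and skeleton, had 559, 400.0 and 637 normalized counts in D14 A, B and C, against 2639, 4161 and 5193 in D7 A, B and C. *wnt2b* had 123, 121 and 102 in the D14 libraries, against 546, 617 and 611 in the D7 libraries. Both fell, *wnt9a* by a log2 fold change of -2.91 (adjusted p = 0.000402) and *wnt2b* by a log2 fold change of -2.36 (adjusted p = 0.000399 from edgeR). *wnt3a* had 245, 221 and 195 in the D14 libraries, against 93.0, 37.1 and 53.9 in the D7 libraries, and rose by 1.84 (adjusted p = 0.01). *wnt9b* had 159, 137 and 115 in the D14 libraries, against 36.0, 22.3 and 2.91 in the D7 libraries, and rose by 2.73 (adjusted p = 0.017), though not without D14 A or D14 B (adjusted p = 0.0534 to 0.063). The paralogues *wnt9a* and *wnt9b* thus changed in opposite directions. Of the receptors, *fzd2* had 982, 564 and 1166 in the D14 libraries, against 3212, 4729.5 and 7189 in the D7 libraries and fell (log2 fold change -2.48, standard error 0.35, adjusted p = 0.00146). *rnf43*, an E3 ligase that removes frizzled receptors and is itself a Wnt target, had 2721, 1789.5 and 2093 in the D14 libraries, against 643, 516 and 616 in the D7 libraries and rose (log2 fold change 1.90, standard error 0.22, adjusted p = 0.000693). Chosen after its values were seen, *dkk1*, a secreted inhibitor of the pathway, was low and fell, with 11.9, 8.58 and 4.31 in the D14 libraries, against 58.3, 87.8 and 106 in the D7 libraries (log2 fold change -3.32, standard error 0.62, adjusted p = 0.00545). Also chosen after their values were seen, *wnt10a* (1.81) and *wnt10b* (3.25), ligands known from skin appendages, rose at low counts, with at most 306 normalized counts of *wnt10a* and 31.8 of *wnt10b* in any library. The direction of *wnt10b* was largely fixed by the filter, which it passed only through its D14 libraries. *wnt10a* did not pass without D14 A, D14 C or D7 B (adjusted p = 0.0539 to 0.144), nor *wnt10b* with voom weights (adjusted p = 0.0607). *wnt3a*, *dkk1*, *wnt10a* and *wnt10b* did not pass with all 9 time course libraries fitted together (adjusted p = 0.0735 to 0.158).

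The EGF family ligand *btc* rose, while the PDGF receptor *pdgfrb* and the insulin adaptor *irs1* fell. Of 35 genes of the EGF, PDGF and IGF pathways, 8 rose (22.9%), 11 fell (31.4%) and 16 did not pass. The median was -0.50. Of all genes tested, 9.95% rose and 10.2% fell. Leaving libraries out, the rises came to 2 without D14 A, 3 without D14 B and 3 without D14 C, and the falls to 7 without D14 A, 7 without D14 B and 6 without D14 C. *btc*, betacellulin, a ligand of this receptor family, had 298, 386 and 147 normalized counts in D14 A, B and C, against 11.2, 37.1 and 37.9 in D7 A, B and C (log2 fold change 3.27, standard error 0.53, adjusted p = 0.0028). *areg* and *ereg*, which encode amphiregulin and epiregulin, both of them ligands, were chosen after their values were seen. *areg* had 66.9, 95.9 and 57.7 in the D14 libraries, against 6.2, 7.42 and 0 in the D7 libraries (log2 fold change 3.95, standard error 0.85, adjusted p = 0.0105), and *ereg* had 86.8, 137 and 41.4 in the D14 libraries, against 8.68, 6.18 and 0 in the D7 libraries (log2 fold change 4.09, standard error 0.88, adjusted p = 0.0106). D14 lay above D7 in every library of *btc*, at low counts, as for 23.6% of all genes tested at any level. *areg* and *ereg* entered the test only through their D14 libraries, so that D14 above D7 was largely fixed for them by the filter. *ereg* did not pass with voom weights (adjusted p = 0.0709). Of the receptors, *erbb3* had 2953, 2331 and 2563 in the D14 libraries, against 692, 451 and 414 in the D7 libraries (log2 fold change 2.33, standard error 0.25, adjusted p = 0.000435). *egfr* (chromosome 6), the receptor of the amphiregulin, epiregulin and betacellulin ligands, had 1089, 1302 and 1004 in the D14 libraries, against 764, 699.8 and 649 in the D7 libraries and rose by 0.68 (adjusted p = 0.0357 from edgeR), but did not pass without D14 A, D14 B, D14 C, D7 B or D7 C (adjusted p = 0.0675 to 0.131). Among those lower at D14, *irs1*, the adaptor of insulin and IGF receptors, had 1820.5, 1336 and 2731 in the D14 libraries, against 3983, 5399.6 and 8877 in the D7 libraries (log2 fold change -1.63, standard error 0.34, adjusted p = 0.00939), and *pdgfrb* is given above. *pdgfrl* fell by 2.22 (adjusted p = 0.015), though not without D14 B, D14 C or D7 B (adjusted p = 0.0522 to 0.0687). *igfbp3*, a carrier of insulin-like growth factors, had a summed count of 78 at D14 and 0 at D7, at least 16.2-fold higher at D14 against the floor of 3 counts over the group. Like *areg* and *ereg*, it entered the test only through its D14 libraries. *igfbp2* rose by 1.83 (adjusted p = 0.0306), though not without D14 A, D14 B or D14 C (adjusted p = 0.0546 to 0.13). *ereg*, *egfr*, *pdgfrl*, *igfbp3* and *igfbp2* did not pass with all 9 time course libraries fitted together (adjusted p = 0.0518 to 0.152).

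**Figure D3:**
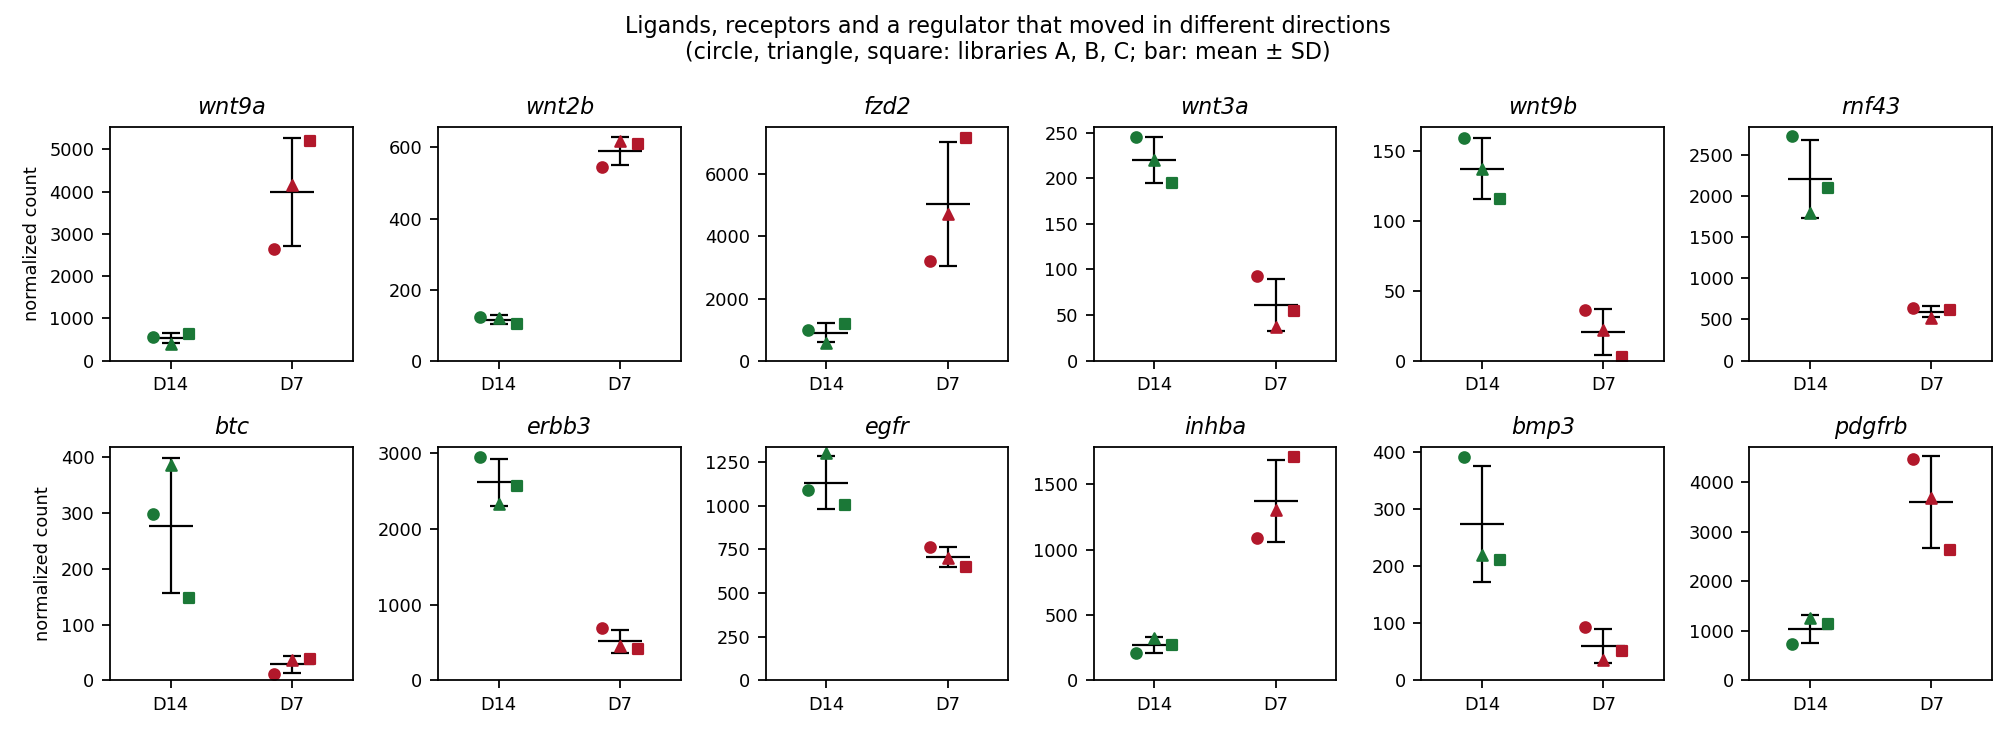
Normalized counts (linear axes from 0) of 12 genes of the Wnt, EGF, PDGF and TGF-beta families in D14 libraries, left and green, and D7 libraries, right and red, with bars for the mean ± SD of 3 libraries. *wnt9a*, *wnt2b*, *fzd2*, *inhba* and *pdgfrb* lie lower at D14 in every library and the other 7 genes higher. The 12 genes were chosen from those called. Of all genes tested, 19.4% lay lower at D14 in every library and 23.6% higher.

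Genes of the TGF-beta and BMP pathway mostly fell where they passed. Of 56 tested, 18 fell (32.1%, against 10.2% of all genes), 2 rose (3.57%, against 9.95%) and 36 did not pass. The median was -0.52, and 15 to 22 fell with each library left out. *inhba*, the beta A chain of inhibin and activin, had 208, 328 and 275 normalized counts in D14 A, B and C, against 1093, 1308 and 1711 in D7 A, B and C (log2 fold change -2.34, standard error 0.26, adjusted p = 0.000511). *bmpr1b*, a type I BMP receptor, had 35.0, 37.4 and 59.5 in the D14 libraries, against 135, 195 and 188 in the D7 libraries (log2 fold change -1.97, standard error 0.39, adjusted p = 0.00702). *inha* (-2.63, adjusted p = 0.0305) had groups that overlapped and did not pass without D14 A, D14 B, D7 B or D7 C (adjusted p = 0.0596 to 0.118). Chosen after its values were seen, *tgfb1*, the ligand TGF-beta 1, had 864, 869 and 1095 in the D14 libraries, against 2430.2, 3435 and 4709 in the D7 libraries (log2 fold change -1.90, standard error 0.26, adjusted p = 0.00132). The genes that rose were *bmp3*, a BMP that opposes other BMPs in bone, and *nbl1*, a secreted BMP antagonist. *bmp3* had 390.1, 219.9 and 210.3 in the D14 libraries, against 94.3, 35.9 and 51.0 in the D7 libraries (log2 fold change 2.17, standard error 0.43, adjusted p = 0.00739), and *nbl1* had 1864, 1082 and 1401 in the D14 libraries, against 442, 284 and 316 in the D7 libraries (log2 fold change 2.06, standard error 0.27, adjusted p = 0.00104). D14 was above D7 in every library of both genes, as for 23.6% of all genes tested. Without D7 A, 4 genes of the list rose. *inha* and *nbl1* did not pass with all 9 time course libraries fitted together (adjusted p = 0.0869 to 0.173).

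In the FGF pathway 10 of 30 genes fell (33.3%, against 10.2% of all genes), 3 rose (10%, against 9.95%) and 17 did not pass. The median was -0.57, and 7 to 11 fell with each library left out. *fgf9* had 159, 83.4 and 122 normalized counts in D14 A, B and C, against 318, 434 and 554 in D7 A, B and C (log2 fold change -1.84, standard error 0.33, adjusted p = 0.00439). *fgf16*, of the same ligand subfamily, had 74.8, 81.9 and 150.0 in the D14 libraries, against 243, 469.9 and 345 in the D7 libraries (log2 fold change -1.79, standard error 0.37, adjusted p = 0.0086). *spry2*, an inhibitor that FGF signals induce, had 490.4, 375 and 603 in the D14 libraries, against 1279, 1382 and 2110.3 in the D7 libraries (log2 fold change -1.70, standard error 0.27, adjusted p = 0.00241). Of the receptors *fgfr3* rose, with 586, 579 and 503 in the D14 libraries, against 158, 258 and 194 in the D7 libraries (log2 fold change 1.45, standard error 0.26, adjusted p = 0.00439). *fgf13* (2.42, adjusted p = 0.029) and *fgfbp1*, a carrier that frees FGFs from matrix (1.92, adjusted p = 0.0267), rose as well, though not without D14 A, D14 B or D14 C (adjusted p = 0.0702 to 0.102) for *fgf13* and not without D14 A, D14 B or D7 B (adjusted p = 0.0572 to 0.161) for *fgfbp1*. As for rises, there were 1 without D14 A, 1 without D14 B and 5 without D7 A. *fgf9*, *fgfr3*, *fgf13* and *fgfbp1* did not pass with all 9 time course libraries fitted together (adjusted p = 0.0844 to 0.241).

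Of 22 Notch genes, 9 fell (40.9%, against 10.2% of all genes), 1 rose (4.55%, against 9.95%) and 12 did not pass. The median was -0.35. Falls in the list numbered 4 without D14 A, 3 without D14 B and 5 without D14 C. *nrarp*, the member with the most counts, was chosen after its values were seen. It made up 0.13%, 0.0646% and 0.0936% of counts at D14, against 0.078%, 0.0799% and 0.0984% at D7, and the groups overlapped. Among targets of the pathway, *hey1* and *hey2* fell. *hey1* had 149.7, 173 and 214 normalized counts in D14 A, B and C, against 736, 877 and 929.8 in D7 A, B and C (log2 fold change -2.24, standard error 0.24, adjusted p = 0.00045), and *hey2* had 115, 148 and 210.3 in the D14 libraries, against 439, 349.9 and 497 in the D7 libraries (log2 fold change -1.44, standard error 0.29, adjusted p = 0.0084). *maml2*, a coactivator of Notch, had 2571, 1774 and 5999 in the D14 libraries, against 9888, 14269 and 14725 in the D7 libraries (log2 fold change -1.91, standard error 0.41, adjusted p = 0.0102), with D14 C above the other D14 libraries. The gene that rose was *dlk1*, a non-canonical ligand, with a summed count of 53 at D14 and 2 at D7, a ratio of 16.5 scaled for library size (95% counting interval 4.34 to 139.7). It entered the test only through its D14 libraries, so that its direction was largely fixed by the filter. *dlk1* did not pass with DESeq2 (adjusted p = 0.051), and the count of rises was 0 without D14 A, 0 without D14 B, 0 without D14 C, 3 without D7 A and 0 without D7 B. Of 19 hedgehog genes, 5 fell (26.3%), 1 rose (5.26%) and 13 did not pass, with a median of -0.28. The number of genes that fell was 2 without D14 A, 2 without D14 B, 3 without D14 C, 2 without D7 B and 2 without D7 C. *gas1*, a co-receptor, fell with 3726, 2597 and 3928 in the D14 libraries, against 6658, 9636 and 11697 in the D7 libraries (log2 fold change -1.45, standard error 0.26, adjusted p = 0.00499), as did *smo*, the signal transducer (-0.99). *gli1*, a target and effector, fell by 1.18 (adjusted p = 0.0216), though not without D14 A, D14 B, D7 B or D7 C (adjusted p = 0.0566 to 0.102). *scube1*, a secreted glycoprotein whose relatives help release hedgehog, rose with 80.4, 146 and 156 in the D14 libraries, against 22.3, 17.3 and 8.74 in the D7 libraries (log2 fold change 2.96, standard error 0.52, adjusted p = 0.00441), and 3 genes rose without D7 A. *hey2*, *dlk1*, *gas1*, *smo* and *gli1* did not pass with all 9 time course libraries fitted together (adjusted p = 0.0727 to 0.161).

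Of 57 axon guidance genes, 14 fell (24.6%), 5 rose (8.77%) and 38 did not pass, with a median of -0.10. Over all genes tested, 10.2% fell and 9.95% rose. Falls numbered 8 without D14 A, 8 without D14 B and 9 without D14 C, and rises 2 without any 1 of these libraries. *ntn1*, netrin 1, had 477, 410.1 and 539.5 normalized counts in D14 A, B and C, against 2134, 1994 and 2189 in D7 A, B and C, with little spread within either group (log2 fold change -2.15, standard error 0.20, adjusted p = 0.000313). *slit1* had 468, 328 and 512 in the D14 libraries, against 1589, 1207 and 1953 in the D7 libraries (log2 fold change -1.86, standard error 0.26, adjusted p = 0.00132), and *sema3g* had 152, 189 and 268 in the D14 libraries, against 661, 716 and 962 in the D7 libraries (log2 fold change -1.94, standard error 0.28, adjusted p = 0.00159). *plxnb3*, a semaphorin receptor, rose with 1524, 899.8 and 876 in the D14 libraries, against 309, 455 and 385 in the D7 libraries (log2 fold change 1.52, standard error 0.27, adjusted p = 0.0048). *robo3*, a divergent slit receptor, rose by 1.25 (adjusted p = 0.0157), though not without D14 A (adjusted p = 0.0528). In the retinoic acid pathway 2 of 13 genes rose and 2 fell (15.4% each), and 9 did not pass. The median was -0.25. *crabp2*, a carrier of retinoic acid into the nucleus, had 646, 926 and 455 in the D14 libraries, against 223, 168 and 173 in the D7 libraries (log2 fold change 1.84, standard error 0.30, adjusted p = 0.00282). *dhrs3*, which turns retinal back to retinol, had 3022, 1620.3 and 2297 in the D14 libraries, against 662, 419 and 1135 in the D7 libraries (log2 fold change 1.65, standard error 0.36, adjusted p = 0.0111). *rara*, a receptor, and *rdh10*, which makes retinal, fell (-0.90 and -1.10), though not without D14 A or D14 B (adjusted p = 0.0535 to 0.0561) for *rara* and not without D14 A, D14 B, D14 C or D7 B (adjusted p = 0.0617 to 0.171) for *rdh10*. Leaving libraries out, the falls came to 0 without D14 A, 0 without D14 B, 1 without D14 C and 1 without D7 B. *sema3g*, *plxnb3*, *robo3*, *crabp2*, *rara* and *rdh10* did not pass with all 9 time course libraries fitted together (adjusted p = 0.056 to 0.249).

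Epidermal genes rose at D14 across nearly the whole list. Of 41 tested, 37 rose (90.2%, against 9.95% of all genes) and 4 did not pass. The median log2 fold change was 2.43, and 31 rose past a log2 fold change of 2. With each library left out in turn, 32 to 39 rose. *foxn1* (position 16725043 to 16758882 on sequence not placed on a chromosome), a factor that starts terminal differentiation in skin, had 946, 800.0 and 711 normalized counts in D14 A, B and C, against 40.9, 11.1 and 17.5 in D7 A, B and C. *tp63* (chromosome 3, 285389080 to 285626844), the master factor of stratified epithelium, had 7452, 4444 and 4037 in the D14 libraries, against 827, 544 and 539 in the D7 libraries. *sfn*, the 14-3-3 sigma protein of differentiating keratinocytes, had 4763, 4572 and 3459.6 in the D14 libraries, against 849, 628 and 544 in the D7 libraries. In all of these the lowest D14 library was several fold above the highest D7 library. D14 lay above D7 in every library for 23.6% of all genes tested, and a rule for naming *foxn1* required it. The log2 fold changes were 5.13, 3.06 and 2.66 for *foxn1*, *tp63* and *sfn* (adjusted p = 0.000282, 0.000399 and 0.000313 in edgeR, standard errors 0.43, 0.30 and 0.24). *esrp1*, which sets epithelial splicing, had 848, 823 and 579 in the D14 libraries, against 109, 68.0 and 36.4 in the D7 libraries (log2 fold change 3.39, standard error 0.38, adjusted p = 0.000568). *grhl2*, a factor of epithelial junctions, had 287, 264 and 184 in the D14 libraries, against 57.1, 4.95 and 7.29 in the D7 libraries (log2 fold change 3.38, standard error 0.74, adjusted p = 0.0112). Within D7, library A had the highest value for *foxn1*, *tp63*, *sfn*, *esrp1* and *grhl2*. *grhl2* had 10 or more counts in only 1 D7 library, so the filter partly fixed its direction. *dsp*, desmoplakin of the desmosome, was chosen after its values were seen and rose, with 29252, 29695 and 19412 in the D14 libraries, against 5121, 2624 and 3936 in the D7 libraries (log2 fold change 2.75, standard error 0.30, adjusted p = 0.000506). *cldn7*, a tight junction protein, had a summed count of 146 at D14 and 3 at D7, a ratio of 30.3 (95% counting interval 10.2 to 148.5). It entered the test only through its D14 libraries, so that its direction was largely fixed by the filter. *cldn7* did not pass with all 9 time course libraries fitted together (adjusted p = 0.0547).

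*krt5*, the epidermal marker that the study's text gives once as excluded by the sort and once as included, is not among the gene symbols. Of the keratins of the list, *krt18*, *krt23* and *krt80* were tested. *krt18*, of simple epithelia, did not pass (-0.21, adjusted p = 0.846), with 89.2, 62.4 and 71.5 in the D14 libraries, against 176, 24.7 and 56.8 in the D7 libraries, whereas *krt23* (2.25) and *krt80* (2.01) rose. *krt23* did not pass without D14 A, D14 B or D7 A (adjusted p = 0.0597 to 0.0727). These 3 keratins were chosen after their values were seen. Each of the 41 epidermal genes tested had a count in at least 1 D7 library, so that epidermal RNA was counted at both timepoints. *krt23* and *krt80* did not pass with all 9 time course libraries fitted together (adjusted p = 0.0979 to 0.162).

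**Figure D4:**
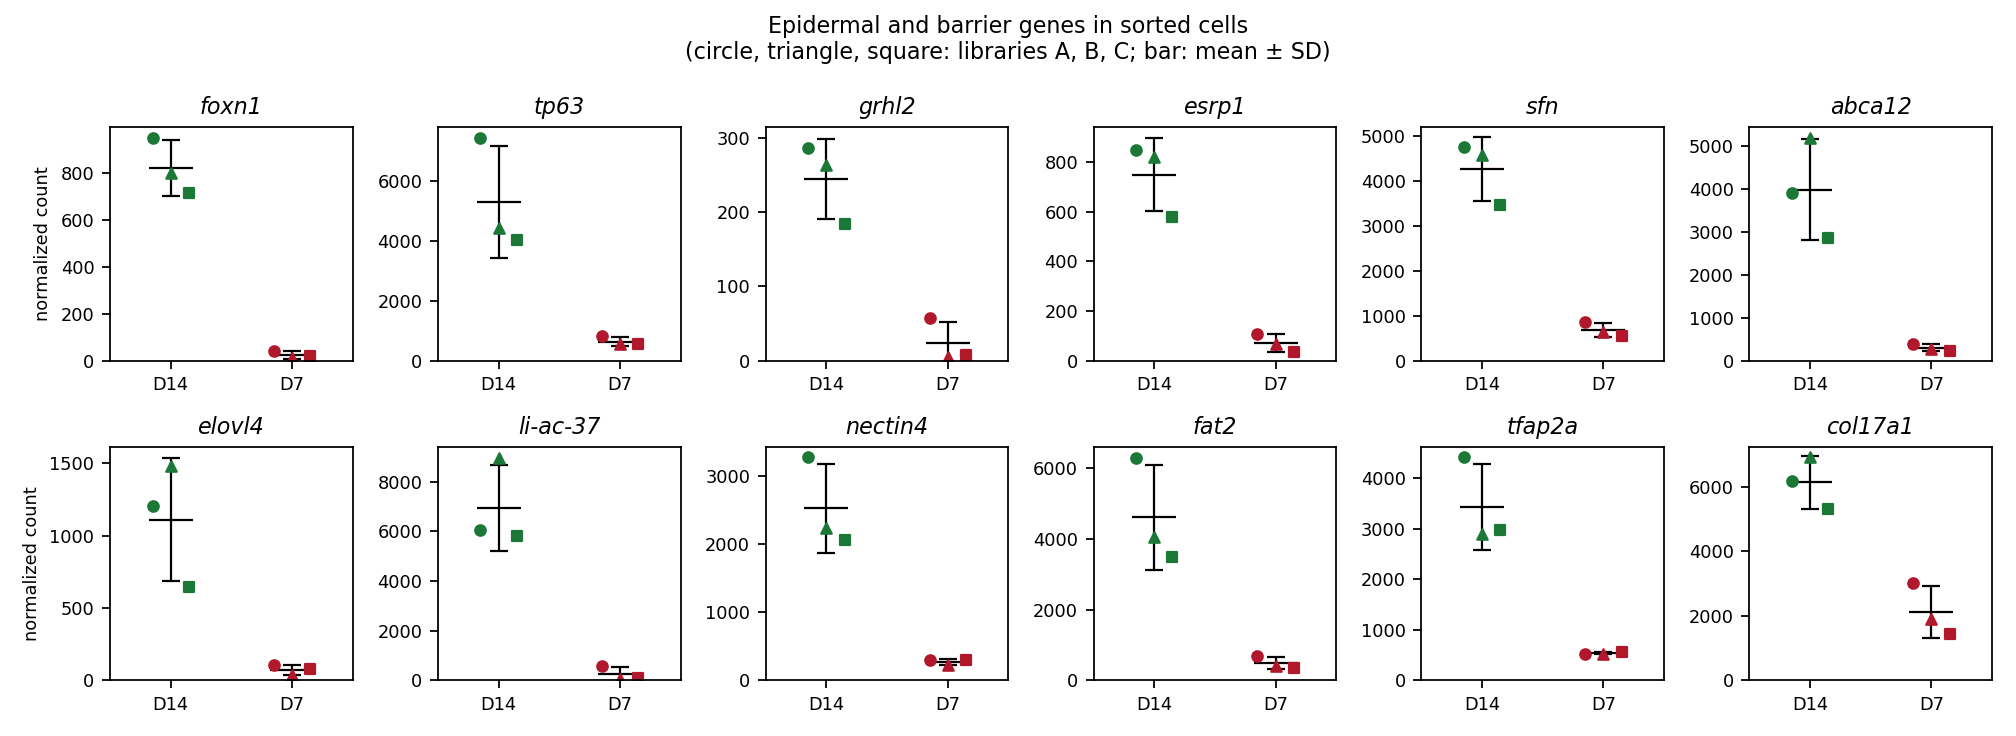
Normalized counts (linear axes from 0) of 12 epidermal and barrier genes in D14 libraries, left and green, and D7 libraries, right and red, with bars for the mean ± SD of 3 libraries. For each of the 12 genes, chosen from those that rose, every D14 library lies above every D7 library, as for 23.6% of all genes tested. D7 A is the highest D7 library for each of the 12 genes except *nectin4* and *tfap2a*. *tfap2a*, known from skin, is counted in the list of mesenchyme transcription factors.

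Genes outside the epidermal list that are known from the skin barrier were among the largest or most precise rises. *abca12*, the lipid transporter of the skin barrier, had 3915, 5195 and 2855 normalized counts in D14 A, B and C, against 392, 271 and 233 in D7 A, B and C (log2 fold change 3.74, standard error 0.30, adjusted p = 0.000271). *elovl4*, which makes very long fatty acids for barrier lipids, had 1200.4, 1483 and 648 in the D14 libraries, against 107, 34.6 and 75.8 in the D7 libraries (log2 fold change 3.94, standard error 0.44, adjusted p = 0.000555). *li-ac-37*, a corneous beta-protein gene named from this lizard, had 6072, 8949 and 5818 in the D14 libraries, against 588, 64.3 and 93.3 in the D7 libraries (log2 fold change 4.80, standard error 0.75, adjusted p = 0.00233). D7 A was the highest D7 library for all of them. No D7 library reached D14, which the rule for naming required of *elovl4* and *li-ac-37*. This was so for 23.6% of all genes tested. *li-ac-35*, of the same family and chosen after its values were seen, rose by 3.46 (adjusted p = 0.00746). Of 5 genes named in this way that were tested, 2 rose (40%, against 9.95% of all genes), and near-identical family members make their counts uncertain. *nectin4*, an adhesion protein of skin, had 3274, 2242 and 2062 in the D14 libraries, against 296, 220.1 and 297 in the D7 libraries (log2 fold change 3.22, standard error 0.26, adjusted p = 0.000271). *fat2*, a giant cadherin of epidermal cells, had 6304, 4064 and 3492 in the D14 libraries, against 681, 413 and 359 in the D7 libraries (log2 fold change 3.25, standard error 0.32, adjusted p = 0.000399). *bcl11a* (2.80), a transcription factor known from skin, blood and brain, *espn* (2.65), an actin bundler, *znf185* (2.62), an actin-associated LIM protein, and *nbeal2* (3.06), known from platelet granules, completed the rises of small p with high counts. *li-ac-35* did not pass with all 9 time course libraries fitted together (adjusted p = 0.0824).

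The smallest p-value among abundant genes that rose belonged to *plch2*, a phospholipase C of the eta type, with 2607, 2222 and 1925 normalized counts in D14 A, B and C, against 282, 297 and 283 in D7 A, B and C (log2 fold change 2.97, standard error 0.21, adjusted p = 0.000174). Its paralogue *plch1* (chromosome 3, 260368049 to 260586727) had a summed count of 799 at D14 and 3 at D7, a ratio of 166 (95% counting interval 56.5 to 805). *plch1*, like *sh3rf2* below, entered the test only through its D14 libraries and was named by a rule that required no overlap. For these genes D14 above D7 was therefore largely fixed in advance. Of the other large rises, *rgs6*, which speeds the shut-off of G protein signals, had 341, 190.2 and 645 in the D14 libraries, against 12.4, 12.4 and 23.3 in the D7 libraries (log2 fold change 4.62, standard error 0.53, adjusted p = 0.000609). *rgl3*, a Ral guanine exchange factor, had 399.6, 539 and 389 in the D14 libraries, against 23.6, 7.42 and 10.2 in the D7 libraries (log2 fold change 4.99, standard error 0.43, adjusted p = 0.000282). *sh3rf2*, an E3 ligase scaffold, had 235, 344 and 153 in the D14 libraries, against 9.92, 6.18 and 0 in the D7 libraries (log2 fold change 5.43, standard error 0.70, adjusted p = 0.000992), and *otx1*, a homeobox factor of forebrain and sense organs, had 357, 170.0 and 274 in the D14 libraries, against 33.5, 0 and 10.2 in the D7 libraries (log2 fold change 4.18, standard error 0.82, adjusted p = 0.00726). *pdzrn4* (4.38), *atp8b1* (4.14), a phospholipid flippase, and *f5* (3.93), coagulation factor V, were the others among the 12 largest, with *arhgef37* (4.80). The rule for naming the 12 largest required no overlap. *rgl3*, *otx1* and *arhgef37* had 10 or more counts in only 1 D7 library, so the filter partly fixed their direction. In *arhgef37* D14 A stood apart, with 1197, 232 and 142 in the D14 libraries, against 52.1, 2.47 and 0 in the D7 libraries, and the gene did not pass without D14 A or D7 B (adjusted p = 0.0619 to 0.0912). *arhgef37* did not pass with all 9 time course libraries fitted together (adjusted p = 0.0675).

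Among genes with names and a mean of at least 100 normalized counts, the largest falls were led by *btg4*, of the BTG family of antiproliferative proteins, at -3.45 (adjusted p = 0.0394 from edgeR), with 46.2, 4.68 and 4.31 normalized counts in D14 A, B and C, against 463, 97.7 and 48.1 in D7 A, B and C. D7 A was the highest D7 library and D14 A the highest D14 library, and the gene did not pass without D14 B, D14 C, D7 A or D7 B (adjusted p = 0.0554 to 0.176). *adra1d*, an alpha-1 adrenergic receptor, had 66.9, 46.8 and 62.1 in the D14 libraries, against 403, 537 and 764 in the D7 libraries (log2 fold change -3.27, standard error 0.32, adjusted p = 0.000386). *foxs1*, a forkhead factor of perivascular cells, had 54.9, 23.4 and 44.0 in the D14 libraries, against 189, 379.6 and 609 in the D7 libraries (log2 fold change -3.26, standard error 0.48, adjusted p = 0.00178). *dio3*, which inactivates thyroid hormone, had 170.3, 155 and 202 in the D14 libraries, against 1112, 1297 and 1565 in the D7 libraries (log2 fold change -2.91, standard error 0.23, adjusted p = 0.000271). *vgll3*, a cofactor of TEAD factors, had 23.1, 33.5 and 55.2 in the D14 libraries, against 184, 399 and 204 in the D7 libraries (log2 fold change -2.82, standard error 0.45, adjusted p = 0.0028). *prss23*, a secreted serine protease, had 993, 913 and 1202 in the D14 libraries, against 5215, 7349.5 and 9868 in the D7 libraries (log2 fold change -2.85, standard error 0.27, adjusted p = 0.000346). All of these were below D7 in every D14 library, which the rule for naming them required. This was so for 19.4% of all genes tested. *map6* (-2.98), which stabilizes microtubules, *arsi* (-2.93), an arylsulfatase, *lrrn4cl* (-2.87) and *pcdh19* (-2.80), a protocadherin, were the others of this group. Of the falls with the smallest p among abundant genes, *dcx*, doublecortin, a microtubule protein known from migrating neurons, had 692, 879.5 and 994 in the D14 libraries, against 3929, 4117 and 4892 in the D7 libraries (log2 fold change -2.33, standard error 0.22, adjusted p = 0.000313). *numbl* (-2.46), a Notch-related adaptor, and *nfatc4* (-2.30), a calcium-regulated transcription factor, fell as well. *btg4* did not pass with all 9 time course libraries fitted together (adjusted p = 0.161).

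Endothelial markers were higher where they passed. Of 29 tested, 6 rose (20.7%, against 9.95% of all genes) and 23 did not pass, with a median of 1.47. Their summed share of counts was 0.0477% to 0.0598% at D14, against 0.0218% to 0.0276% at D7. Without *sox7*, the member with the most counts, it was 0.031% to 0.0443% at D14 and 0.0201% to 0.0259% at D7. Rises in the list numbered 2 without D14 A, 3 without D14 B and 2 without D14 C. *sox7*, an endothelial SOX factor that other tissues also use, had 1685, 1372 and 1475 normalized counts in D14 A, B and C, against 174, 137 and 203 in D7 A, B and C (log2 fold change 3.14, standard error 0.23, adjusted p = 0.000232). No D7 library came near the D14 libraries, and D14 lay above D7 in every library for 23.6% of all genes tested. *tie1* (1.97, adjusted p = 0.0418) and *robo4* (1.89, adjusted p = 0.0367) are endothelial receptors, and they did not pass without D14 A, D14 B, D14 C, D7 B or D7 C (adjusted p = 0.0639 to 0.137) for *tie1* and without D14 A, D14 B, D14 C or D7 A (adjusted p = 0.069 to 0.114) for *robo4*. The junction cadherin *cdh5*, chosen after its values were seen, had 54.9, 61.6 and 75.0 in the D14 libraries, against 59.5, 34.6 and 1.46 in the D7 libraries and overlapping groups (adjusted p = 0.434). *tie1* and *robo4* did not pass with all 9 time course libraries fitted together (adjusted p = 0.111 to 0.22).

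Of 18 Schwann cell markers, 3 rose, 3 fell (16.7% each, against 9.95% and 10.2% of all genes) and 12 did not pass. The median was 0.20. The summed share of counts was 0.0857% to 0.105% at D14 and 0.104% to 0.123% at D7, and these ranges overlapped. Without *l1cam*, the member with the most counts, it was 0.0616% to 0.0685% at D14 and 0.0453% to 0.0536% at D7. *erbb3* carried this second difference, with 3710, 2990 and 2974 counts in D14 A, B and C, against 558, 365 and 284 in D7 A, B and C. The sum of the remaining markers was not higher at D14. *sox10*, the factor of neural crest and glia, had 114, 119 and 132 normalized counts in D14 A, B and C, against 7.44, 14.8 and 7.29 in D7 A, B and C (log2 fold change 3.60, standard error 0.51, adjusted p = 0.00146). *foxd3*, a neural crest factor, had 231, 246 and 305 in the D14 libraries, against 33.5, 27.2 and 43.7 in the D7 libraries (log2 fold change 2.90, standard error 0.35, adjusted p = 0.00072). *sox10* had 10 or more counts in only 1 D7 library, so the filter partly fixed its direction. The other rise was *erbb3*, given above, which the epidermis also expresses. Among the falls were *l1cam* (-1.34), a neural adhesion protein, and *prx* (-1.24), periaxin of myelinating Schwann cells. Myelin protein zero, *mpz*, chosen after its values were seen, had 34.2, 56.1 and 53.4 in the D14 libraries, against 19.8, 3.71 and 56.8 in the D7 libraries and did not pass (adjusted p = 0.5). Of 16 pigment cell markers, 6 rose (37.5%, against 9.95% of all genes) and 10 did not pass, with a median of 0.76. Their summed share of counts was 0.0208% to 0.0249% at D14, against 0.0124% to 0.0148% at D7. *ltk*, a receptor kinase of iridophores, rose by 2.07 (adjusted p = 0.0244), *oca2*, of melanosomes, by 3.01 (adjusted p = 0.0152), and the channel *trpm1* by 1.75 (adjusted p = 0.0302). They did not pass without D14 A, D14 B or D14 C (adjusted p = 0.0577 to 0.0803) for *ltk*, without D14 B or D14 C (adjusted p = 0.0574 to 0.0655) for *oca2* and without D14 A, D14 B, D14 C or D7 A (adjusted p = 0.0525 to 0.0766) for *trpm1*. The count of rises in this list was 1 without D14 A, 0 without D14 B and 0 without D14 C. *l1cam*, *ltk* and *trpm1* did not pass with all 9 time course libraries fitted together (adjusted p = 0.0806 to 0.152).

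Of 21 markers of skeletal muscle, 2 rose and 19 did not pass, with a median of 0.49. *ttn*, titin, had 913, 1282 and 1481 normalized counts in D14 A, B and C, against 158, 239 and 13.1 in D7 A, B and C, and D7 C was far below the other D7 libraries (log2 fold change 3.16, standard error 0.67, adjusted p = 0.0103). *tnni1*, slow troponin I, had a summed count of 67 at D14 and 2 at D7, a ratio of 20.8 (95% counting interval 5.55 to 175.6). The number of genes that rose was 1 without D14 A, 1 without D14 B, 1 without D14 C and 5 without D7 A. Of 12 erythrocyte markers, 1 rose, 1 fell and 10 did not pass, with a median of 0.78. The rise was *tal1*, a factor of blood and vessels, with a summed count of 85 at D14 and 3 at D7 and a ratio of 17.6 (95% counting interval 5.83 to 87.2). *tnni1* and *tal1* entered the test only through their D14 libraries, so that D14 above D7 was largely fixed for them by the filter. The fall was *add2*, a membrane skeleton protein (-1.03, adjusted p = 0.0181), which did not pass without D14 A, D14 B or D7 B (adjusted p = 0.0527 to 0.0891). Leaving libraries out, the rises came to 0 without D14 A, 0 without D14 C, 3 without D7 A and 0 without D7 B. The summed share of the erythrocyte markers was 0.0375% to 0.057% at D14 and 0.0288% to 0.0454% at D7. Shares of genes called were 9.52% higher for muscle and 8.33% in each direction for erythrocytes, near those of all genes. *tnni1*, *tal1* and *add2* did not pass with all 9 time course libraries fitted together (adjusted p = 0.0869 to 0.22).

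Of 60 genes of DNA replication and mitosis tested, 13 fell (21.7%, against 10.2% of all genes), 0 rose and 47 did not pass, with a median of -0.48. Falls in the list numbered 7 without D14 A, 3 without D14 B, 4 without D14 C and 7 without D7 B. *mcm7*, a subunit of the replicative helicase, had 420.3, 306 and 404 normalized counts in D14 A, B and C, against 942, 1125 and 1511 in D7 A, B and C (log2 fold change -1.66, standard error 0.24, adjusted p = 0.00178). *prc1*, of the central spindle, had 677, 508 and 659 in the D14 libraries, against 1347, 1188 and 1956 in the D7 libraries (log2 fold change -1.28, standard error 0.24, adjusted p = 0.00596). *ccnb3*, a cyclin, fell by 1.41 (adjusted p = 0.0352), though not without D14 A, D14 B, D14 C, D7 B or D7 C (adjusted p = 0.0811 to 0.144). *mki67*, the proliferation marker Ki-67, chosen after its values were seen, had 1493, 1328 and 1447 in the D14 libraries, against 1946, 1745 and 1632 in the D7 libraries. It did not pass (-0.32, adjusted p = 0.247 from edgeR), which does not show that the level was the same. *ccnb3* did not pass with all 9 time course libraries fitted together (adjusted p = 0.215).

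Genes of cartilage did not move together. Of 23 tested, 5 fell (21.7%, against 10.2% of all genes), 1 rose (4.35%, against 9.95%) and 17 did not pass. The median was -0.35. The number of genes that fell was 2 without D14 A, 2 without D14 B, 2 without D14 C, 8 without D7 A and 3 without D7 B, and the number that rose was 0 without D14 B, 0 without D14 C, 0 without D7 A and 2 without D7 B. *prg4*, lubricin of joint surfaces, had 97.9, 123 and 233 normalized counts in D14 A, B and C, against 563, 736 and 329 in D7 A, B and C (log2 fold change -1.84, standard error 0.39, adjusted p = 0.0101). *pth1r*, a receptor of growth plate cells, had 87.6, 101 and 142 in the D14 libraries, against 289, 362 and 436 in the D7 libraries (log2 fold change -1.72, standard error 0.30, adjusted p = 0.00415). *comp*, a cartilage and tendon matrix protein, fell by 1.01 (adjusted p = 0.0234), though not without D14 A, D14 B, D14 C or D7 B (adjusted p = 0.0622 to 0.102). *sox6*, a chondrogenic factor, rose by 0.81 (adjusted p = 0.0486), though not without D14 B, D14 C, D7 A, D7 B or D7 C (adjusted p = 0.0781 to 0.205). *col2a1* and *col9a2*, collagens of cartilage, varied widely within D7. *col2a1* had 911, 1912 and 1199.7 in the D14 libraries, against 184, 4028 and 917 in the D7 libraries and did not pass (-0.35, adjusted p = 0.787), with D7 A far below and D7 B above every D14 library. *col9a2* had 459, 524 and 728 in the D14 libraries, against 43.4, 476 and 332 in the D7 libraries and did not pass either (1.01, adjusted p = 0.27). *comp* and *sox6* did not pass with all 9 time course libraries fitted together (adjusted p = 0.0835 to 0.269).

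Of 68 cytosolic ribosomal protein genes, 5 rose (7.35%), 1 fell (1.47%) and 62 did not pass, with a median of 0.50, and 61 of the 68 log2 fold changes were above 0. As for rises, there were 0 without D14 A, 0 without D14 B, 16 without D7 A, 2 without D7 B and 3 without D7 C. *rpl23* had 622, 597 and 454 normalized counts in D14 A, B and C, against 304, 103 and 185 in D7 A, B and C (log2 fold change 1.50, standard error 0.36, adjusted p = 0.0174), but did not pass without D14 A or D14 B (adjusted p = 0.0519 to 0.0544). *rpl21* (1.17) rose while *rpl7a* (-0.76) fell. The call was lost for *rpl21* without D14 A, D14 B, D7 A, D7 B or D7 C (adjusted p = 0.0523 to 0.175), and for *rpl7a* without D14 B, D14 C, D7 B or D7 C (adjusted p = 0.0636 to 0.169). Of 35 nuclear genes of mitochondrial respiration, 1 fell and 34 did not pass, with a median of 0.07. Of 30 genes of glycolysis and hypoxia, 2 rose (6.67%), 3 fell (10%) and 25 did not pass, with a median of 0.03, shares near the 9.95% and 10.2% of all genes. *ndrg1*, induced by hypoxia, had 626, 712 and 538 in the D14 libraries, against 166, 256 and 127 in the D7 libraries (log2 fold change 1.77, standard error 0.29, adjusted p = 0.00325), and *adm*, adrenomedullin, had 177, 136 and 151 in the D14 libraries, against 440.4, 733 and 886 in the D7 libraries (log2 fold change -2.15, standard error 0.30, adjusted p = 0.00134). *egln3*, an oxygen sensor, and *eno2*, a neuronal enolase, fell (-1.31 and -1.57), and *pdk1*, a brake on pyruvate oxidation, rose (1.06). The groups of *eno2* overlapped, and it did not pass without D14 A, D14 B, D14 C, D7 B or D7 C (adjusted p = 0.0854 to 0.168). Nor did *pdk1* pass without D14 A, D14 B, D14 C, D7 B or D7 C (adjusted p = 0.0659 to 0.194). In this list 5 genes fell without D7 A, and 1 rose without D14 A, B or C or without D7 B. *rpl23*, *rpl21*, *rpl7a*, *egln3*, *eno2* and *pdk1* did not pass with all 9 time course libraries fitted together (adjusted p = 0.0585 to 0.172).

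Of 42 genes of the heat shock and unfolded protein response, 6 rose (14.3%), 4 fell (9.52%) and 32 did not pass, with a median of 0.40. These shares lie near those of all genes, 9.95% and 10.2%. Rises in the list numbered 2 without D7 B and 3 without D7 C, and falls 2 without D14 B and 2 without D14 C. Several chaperones were among the rises. *hspb8*, a small heat shock protein, had 4343, 1818 and 4169 normalized counts in D14 A, B and C, against 819, 1015 and 965 in D7 A, B and C (log2 fold change 1.88, standard error 0.31, adjusted p = 0.0032). *hspa4l*, of the HSP110 family, had 1728, 1793 and 1356 in the D14 libraries, against 687, 576 and 412 in the D7 libraries (log2 fold change 1.54, standard error 0.24, adjusted p = 0.00233). *hsp90b1*, the HSP90 of the endoplasmic reticulum, rose by 1.23 (adjusted p = 0.0196), though not without D14 B, D7 B or D7 C (adjusted p = 0.0547 to 0.0765). Among the falls were *ddit3*, the stress factor CHOP, with 597, 395 and 510.2 in the D14 libraries, against 1218, 1244 and 1384 in the D7 libraries (log2 fold change -1.36, standard error 0.22, adjusted p = 0.00265), and *chac1*, which CHOP induces (-1.47, adjusted p = 0.0148), though not without D14 B or D14 C (adjusted p = 0.0514 to 0.0696). *hspb7*, a small heat shock protein of muscle, fell by 2.48 (adjusted p = 0.0132). *hspb8*, *hsp90b1*, *chac1* and *hspb7* did not pass with all 9 time course libraries fitted together (adjusted p = 0.0648 to 0.135).

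**Figure D5:**
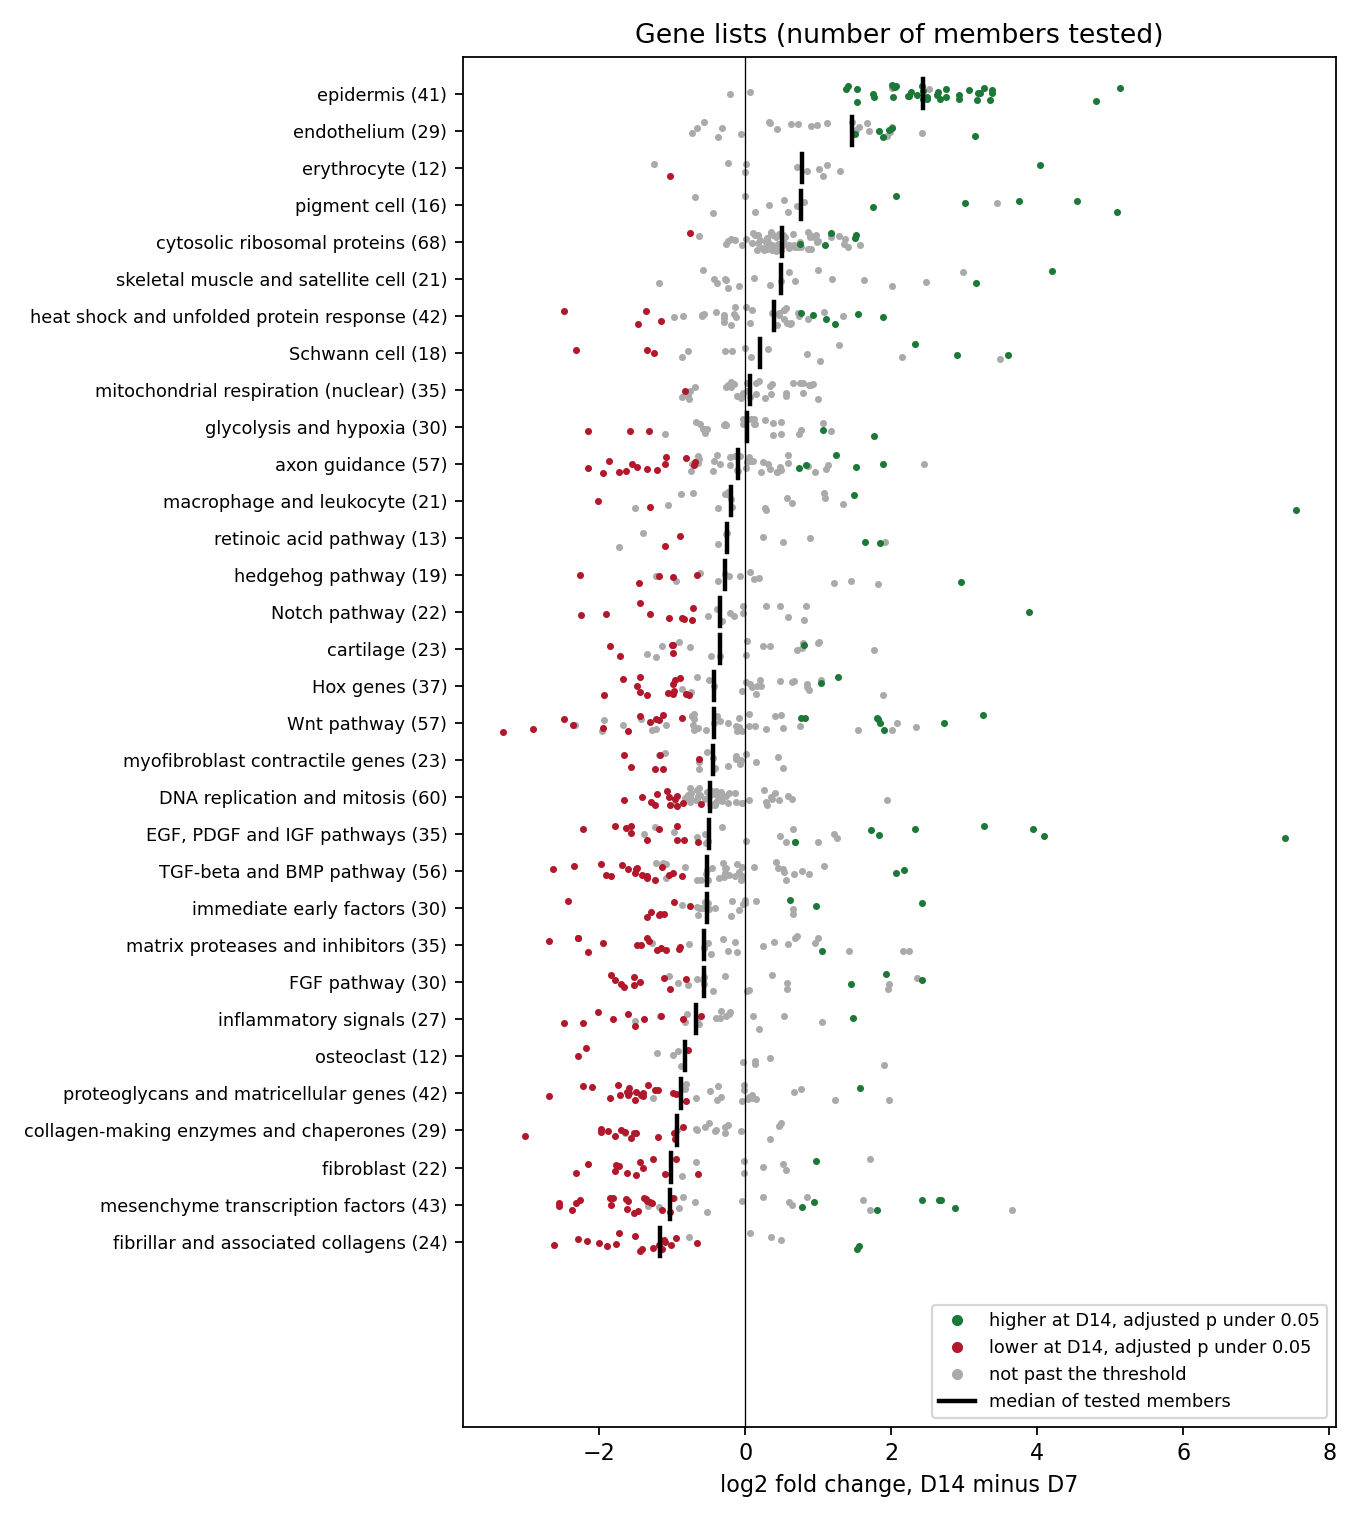
Log2 fold change, D14 minus D7, of each tested member of 32 gene lists, with one dot per gene, ordered by the median of the list (black bar). The median lies at 2.43 for epidermis and at -1.16 for collagens, and is 0.04 over all genes tested.

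Rises and falls are given by kind of gene as counts, without a test between kinds. Of 2725 long noncoding RNA genes tested, 414 rose (15.2%) and 68 fell (2.5%), whereas of 17612 protein coding genes 1589 rose (9.02%) and 2010 fell (11.4%). Of all genes tested, 9.95% rose and 10.2% fell. Fewer genes were detected at D7 at an equal total count, and the part of this in the counts by kind was not tested. Of 47 small nuclear RNA genes tested, 26 rose (55.3%, against 9.95% of all genes). The copies of these genes are near-identical, so that the count of each copy is uncertain. Small nuclear RNA made up 0.264%, 0.127% and 0.21% of counts in D14 A, B and C, against 0.137%, 0.0869% and 0.142% in D7 A, B and C, and the groups overlapped in this sum. LOC134299040, a small nuclear RNA gene (chromosome 4, 128119621 to 128119783), had a summed count of 1062 at D14 and 3 at D7, a ratio of 220 (95% counting interval 75.2 to 1070). LOC107982483, a protein coding gene (chromosome 2, 30756022 to 30767579), had 897, 5238 and 2663 in the D14 libraries, against 8.68, 0 and 0 in the D7 libraries (log2 fold change 9.86, standard error 0.95, adjusted p = 0.000372), with D14 B the highest. LOC107983360, a long noncoding RNA gene on unplaced sequence, had 146, 327 and 140.5 in the D14 libraries, against 3.72, 3.71 and 0 in the D7 libraries (log2 fold change 6.24, standard error 0.72, adjusted p = 0.000631). These 3 LOC genes entered the test only through their D14 libraries, and the rule for naming them required no overlap. Genes whose symbol begins with LOC rose in 947 (12.4%, against 9.95% of all genes) and fell in 489 (6.43%, against 10.2%) of 7608 tested.

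Ribosomal RNA was removed with probes before sequencing, and the sum over all rRNA genes was lower at D14. It made up 0.0496%, 0.0272% and 0.0347% of counts at D14, against 0.102%, 0.0756% and 0.071% at D7, with no overlap. Of 32 rRNA genes tested, 6 fell (18.8%, against 10.2% of all genes) and 1 rose (3.12%, against 9.95%). The largest falls among genes with LOC symbols were 3 rRNA genes on unplaced sequence, LOC134294997, LOC134295226 and LOC134294814. LOC134294997 had 51.7, 25.7 and 37.1 normalized counts in D14 A, B and C, against 2533, 1426 and 1345 in D7 A, B and C. LOC134295226 had 46.2, 23.4 and 36.2 in the D14 libraries, against 1962, 1602 and 1045 in the D7 libraries, and LOC134294814 had 62.9, 31.2 and 48.3 in the D14 libraries, against 2546, 1436 and 1377 in the D7 libraries. The log2 fold changes were -5.53, -5.44 and -5.23 in that order (standard errors 0.38, 0.36 and 0.37, adjusted p = 0.000174 for each from edgeR). In D7 A these copies held 2042, 1582 and 2052 counts, against 65, 58 and 79 in D14 A. They carried the difference in the rRNA sum, and without them the groups overlapped. The lower sum is therefore not read for the other rRNA genes. Reads of such copies cannot be told apart, and the part of depletion in these falls was not tested.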

How the data were processed

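RNA of sorted *col3a1*+ cells was sequenced from libraries made with a stranded total RNA kit and probes against anole rRNA. Reads had been aligned with STAR to the rAnoCar3.1.pri assembly by the authors, who deposited a whole-number count per gene and library, with 8166652 to 12699682 counts per library. The deposited counts are named as normalized, but the totals differ and no scaling was seen, so they were treated as raw counts. Per the labels, SAMtools 1.17 and DESeq2 1.45.1 were used. The counting tool and its strand setting are not given in the sources used here, so that overlapping genes and near-identical copies are uncertain. By symbol, 26339 genes matched the RefSeq annotation, which gave positions and kinds, and 184 did not.

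Genes that reached 10 counts in 3 or more of the 6 libraries entered the test, made with edgeR 4.0.16 in R 4.3.3 (TMM, quasi-likelihood test, no covariates, D14 minus D7). A gene below 10 counts in every D7 library could enter only through all 3 D14 libraries, so its direction was largely fixed. Of the genes named, this held for *areg*, *cldn7*, *dlk1*, *ereg*, *hck*, *igfbp3*, *plch1*, *sh3rf2*, *tal1*, *tnni1*, *wnt10b* and the 3 LOC genes that rose. A gene with 10 or more counts in only 1 D7 library also needed D14 libraries to enter, so its direction was partly fixed. Genes of this kind include *arhgef37*, *grhl2*, *otx1*, *rgl3*, *six2* and *sox10*. P-values were adjusted by Benjamini-Hochberg over all genes tested. Normalized counts are counts scaled to the mean effective library size. The absolute log2 fold change over the root of F gave its standard error. A group at 0 was read as up to 3 counts, and 95% intervals of ratios of summed counts were exact. Floors and intervals cover counting error only. In simulated counts for this comparison, a change of 2 on the log2 scale was given to 200 of 19641 genes. These were drawn from genes with a mean of at least 50 counts. Of the 200 genes, 156 were called in the right direction beside 10 false calls. Genes with lower counts are not covered, and far fewer genes were changed than were called in the data.

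The members and the 32 gene lists were chosen with earlier results of these data known, so no list count is independent support. List counts are to be read beside the shares over all genes tested, 9.95% higher and 10.2% lower. Per direction, the text names genes from the 12 largest changes (past an absolute log2 fold change of 2, mean of at least 100 normalized counts, no overlap) and the 12 smallest p (mean of at least 1000), up to 3 rises and 3 falls per list (mean of at least 50), 3 rises and 3 falls of LOC genes, and genes of the study's text. Any other gene is marked as chosen after its values were seen. Alternatives were DESeq2 1.42.0, voom weights of limma 3.58.1, other normalizations and filters, all 9 time course libraries, a replicate block, each library left out, and, chosen after seeing the data, thinning to the smallest total and list sums without the member with the most counts. Plots were drawn with matplotlib 3.10.9. Columns, libraries and images of the rest of the study were not used here. Some genes that the naming rule gives are not reported here.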

Additional observations from a re-analysis of the deposited data

How the results depend on the processing

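In every alternative, each gene called both there and in the comparison as reported kept its sign. All 190 genes past the threshold that the naming rule gave or that were chosen after their values were seen kept their sign, and 113 of them passed in every alternative that tested them. With each library left out in turn, 882 to 2917 genes were higher and 914 to 2512 lower, and with the fold threshold 469 to 1888 were higher and 133 to 397 lower. The extremes came from leaving out D14 A, D14 B or D7 A. With the 9 time course libraries fitted together, 500 genes were higher and 536 lower, and 381 and 148 past the fold. The cause was not tested. A mean count of at least 50, which tests fewer genes, left 705 higher and 169 lower past the fold. Scaling by library totals alone moved the median of all genes to 0.24 and left 145 lower past the fold. It made 63.5% of calls higher, against 49.5% as reported, and 90.2% of those past the fold, against 80.3%. Upper quartile scaling moved the median to 0.15. Voom weights ended the calls of *arhgef37*, *maff*, *plau*, *sox6*, *fgfbp1*, *inha*, *pdk1*, *eno2*, *rpl21*, *ifi30*, *egfr*, *ereg* and *wnt10b*. DESeq2, the tool of the methods, called 2660 genes higher and 2700 lower.

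The letters did not pair the libraries. After group means were removed, correlations between libraries of the same letter were -0.052, 0.038 and 0.12 for A, B and C. With the letter as a replicate block, 1849 genes were higher and 2046 lower, and 965 and 256 past the fold. Thinned to the smallest total, an alternative chosen after seeing the data, 1781 were higher and 1911 lower. *col2a1*, which did not pass (log2 fold change -0.35), was at 0.27 with voom weights and 0.49 with the replicate block, and between -0.88 and 1.29 with each library left out. *krt18*, which did not pass either (-0.21), was at 0.34 with voom weights and 0.19 with the replicate block, and between -0.65 and 0.87 with each library left out. The cause was not tested. Depth limits low genes such as *il6*, which had 3 to 14 counts at D14 and 0 to 5 at D7 and was not tested.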
